A study of Homo sapiens with 6 samples.

Results

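Heat shock chaperones of the cytosol and the mitochondrion were followed as 52 genes, listed by name and grouped by function, of the 20263 genes in the table. All 52 were found by Ensembl gene ID, 1 of them, HSPB11, through an older symbol. In this module HCT116 cells treated with CSE held less HSP70 mRNA and more HSP90 mRNA than wild type (WT) HCT116 cells. Inducible HSPA1B was 2.25-fold lower and constitutive HSPA8 1.32-fold lower in CSE, while HSP90AB1 was 1.38-fold higher. HSF1, the factor that governs the heat shock response, had 117 ± 2.92 TPM in CSE and 115 ± 3.31 TPM in WT (SD, n = 3 each) and did not pass the test.

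HCT116 is an established human colorectal cancer line. RNA-seq with an mRNA library kit covered 3 CSE-treated samples and 3 WT samples of this single line. The WT samples are those titled with the name of the line and no CSE, so the groups are set apart by treatment. The labels do not spell out CSE; as the series title speaks of smoking, cigarette smoke extract is the reading taken here. Neither dose, nor exposure time, nor a solvent for the WT cells is stated in the labels, and nothing says that the samples of a group were separate cultures, so p-values cover only how far these samples vary, which may be technical variation.

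Values are TPM, read abundance corrected for transcript length and scaled to a fixed library total, and the sequencing depth is unknown. Each value is a share, and less RNA per cell and fewer cells of a type cannot be told apart. Mitochondrially encoded transcripts held 25.5% to 25.8% of the CSE libraries and 27.0% to 30.2% of the WT libraries. CSE replicate 3 stood apart from the other CSE samples on the second principal component (9.26% of the variance). Of 7 colorectal epithelial markers, 6 were at 1 TPM or more in every library, and VIL1 was at or below 0.05 TPM. Of 8 markers of immune, endothelial and stromal cells, CD68 and COL1A1 passed 1 TPM everywhere, the defining genes PTPRC and CD3E were at 0 in CSE and at or below 0.08 TPM in WT, and DCN was at 0 throughout. The 8 summed to 49.99 to 51.4 TPM in CSE and 61.7 to 63.7 TPM in WT, and their part in the results was not tested.

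Chaperones bind unfolded segments of proteins and release them in cycles driven by ATP. HSP70 proteins take clients from J-domain (DNAJ) partners and are reset by nucleotide exchange factors, among them the HSP110 and BAG proteins. HSP90 receives part of these clients through STIP1 and completes their folding with further cochaperones, small HSPs hold denatured proteins without ATP, and the CCT ring encloses actin, tubulin and other clients. Mitochondria have their own HSP70 (HSPA9), HSP90 (TRAP1) and a chaperonin made of HSPD1 and HSPE1. When unfolded protein accumulates, HSF1 trimers bind heat shock elements, inverted repeats of the unit GAA, in the promoters of many of these genes.

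The promoters of the members on which the results turn are shown because they carry matches to such repeats, of 2 or 3 units. They are RefSeq sequences on GRCh38.p14, 5′ to 3′ on the gene's strand, with the GAA and TTC units of each match in capitals. HSPA1A (chr6:31815293-31815542, plus strand), HSPA1B (chr6:31827488-31827737, plus) and HSPA8 (chr11:123062137-123062386, minus), whose mRNAs were lower in CSE, are given over the 250 bases before the start.
HSPA1A: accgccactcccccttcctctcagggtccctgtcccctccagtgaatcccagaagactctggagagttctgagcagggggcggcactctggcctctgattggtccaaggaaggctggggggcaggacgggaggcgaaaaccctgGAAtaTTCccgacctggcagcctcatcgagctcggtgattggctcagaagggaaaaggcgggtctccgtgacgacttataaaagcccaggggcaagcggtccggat
HSPA1B: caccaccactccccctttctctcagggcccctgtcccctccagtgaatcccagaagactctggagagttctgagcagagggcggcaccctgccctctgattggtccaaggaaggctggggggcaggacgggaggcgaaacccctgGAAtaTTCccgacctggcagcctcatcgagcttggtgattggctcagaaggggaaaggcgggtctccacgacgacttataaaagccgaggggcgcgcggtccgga
HSPA8: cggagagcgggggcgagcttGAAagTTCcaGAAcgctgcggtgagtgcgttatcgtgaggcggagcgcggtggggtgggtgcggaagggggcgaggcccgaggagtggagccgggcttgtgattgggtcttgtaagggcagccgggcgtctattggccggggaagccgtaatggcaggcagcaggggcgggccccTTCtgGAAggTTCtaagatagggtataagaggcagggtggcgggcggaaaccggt
DNAJA1 (chr9:33025203-33025302, plus) and CHORDC1 (chr11:90223050-90223149, minus), also lower in CSE, are given around their 3-unit matches. The 3-unit match of DNAJA1 lies just after the start. Each has a further 2-unit match outside the stretch shown, at position -198 from the start in DNAJA1 and -205 in CHORDC1.
DNAJA1: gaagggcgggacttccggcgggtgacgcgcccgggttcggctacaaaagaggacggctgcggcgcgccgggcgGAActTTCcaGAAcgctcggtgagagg
CHORDC1: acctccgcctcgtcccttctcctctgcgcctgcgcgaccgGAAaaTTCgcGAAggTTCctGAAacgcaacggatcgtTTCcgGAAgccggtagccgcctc
HSP90AA1 (chr14:102087045-102087194, minus), HSP90AB1 (chr6:44247753-44247902, plus, from 1 of its 3 RefSeq start windows) and HSPD1 (chr2:197500031-197500090, minus) had more mRNA in CSE.
HSP90AA1: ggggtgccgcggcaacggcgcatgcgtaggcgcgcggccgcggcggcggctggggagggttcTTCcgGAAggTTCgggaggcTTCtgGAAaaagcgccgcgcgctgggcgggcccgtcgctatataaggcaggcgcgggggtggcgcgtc
HSP90AB1: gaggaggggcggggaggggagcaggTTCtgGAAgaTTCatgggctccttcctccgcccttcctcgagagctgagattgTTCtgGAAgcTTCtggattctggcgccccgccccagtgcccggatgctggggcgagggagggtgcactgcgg
HSPD1: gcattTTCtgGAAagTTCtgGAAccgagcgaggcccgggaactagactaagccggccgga

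The windows of HSPA1A and HSPA1B agree at 277 of 299 bases (92.6%) after a shift of 1 base, and each holds a single GAAtaTTC. RefSeq windows, reaching from 250 bases before to 50 after a start, were matched for 46 members (64 windows); HSF1, CCT6A, ST13, HSPA14, CRYAB and FKBP4 were not matched. The 2-unit repeats GAANNTTC and TTCNNGAA, each its own reverse complement and so the same on both strands, lay in 23 member windows (35.9%), against 13.5% of all 35116 windows. The 3-unit repeats extend these by NN and a further inverted unit (GAA, NN, TTC, NN, GAA, or its reverse complement) and so contain both 2-unit forms. They lay in 8 member windows (12.5%), against 0.49% of all windows. A 3-unit match was present in some window of 3 of 10 members called higher in CSE (HSP90AA1, HSP90AB1 and HSPD1) and of 3 of 15 called lower (HSPA8, DNAJA1 and CHORDC1). It was also present in DNAJB6, which was not called, and in HSPA6, which was not tested. Members with this sequence therefore lay on both sides of the comparison. The 10 members called higher include HSPA1L, which entered the test only through its CSE values. The matches describe letters only. The search took exact units, so repeats with an altered unit are missed, and BAG3 and HSPH1 had 0 matches. The match of HSPA1L, on the opposite strand, is the same site as that of HSPA1A and is counted for both.

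Across the module 12 genes were called higher in CSE and 15 lower, with 23 not called, of 50 members tested. A gene is called here when its limma p, adjusted by Benjamini-Hochberg over all 12793 genes tested, is under 0.05. Of all genes tested 24.5% were called higher and 25.6% lower, so the members' counts lie close to the background. HSPA6 and CRYAB fell short of the filter, 1 TPM in at least 3 libraries, and HSPA1L, counted among the 12, passed it only through its CSE values, so its call is no evidence of a rise. Calls with a difference of at least 1.2-fold numbered 5 higher, HSPA1L included, against 12.3% of all genes, and 11 lower, against 13.9%. The values of the groups did not overlap for 35 of the 50, against 57.4% of all genes. Where such a gap is given for called genes below, it adds no support to the call. The median log2 fold change was -0.0074 for the tested members and -0.0039 for all genes.

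The split depends on the scaling. With mitochondrially encoded genes left out and the rest rescaled, 10 members were higher and 24 lower, and the share of higher calls among all called genes was 34.3% in place of 48.9%. That rescaling placed the median of all genes at -0.06. No called member changed direction under any of the 15 alternatives, and 24 of the 27 (10 higher, 14 lower) stayed called in each alternative in which they were tested. The exceptions were HSF2, DNAJC2 and DNAJC7. HSPA1L is counted among the 10 higher, although it entered the test only through its CSE values, so its stability is no evidence of a rise. HSPA1A, HSPA2 and HSPA1L were not tested under the filter on a mean of at least 5 TPM, and HSPA1L was also not tested when any CSE replicate was left out, which leaves it 11 of the 15 alternatives.

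**Figure D1:**
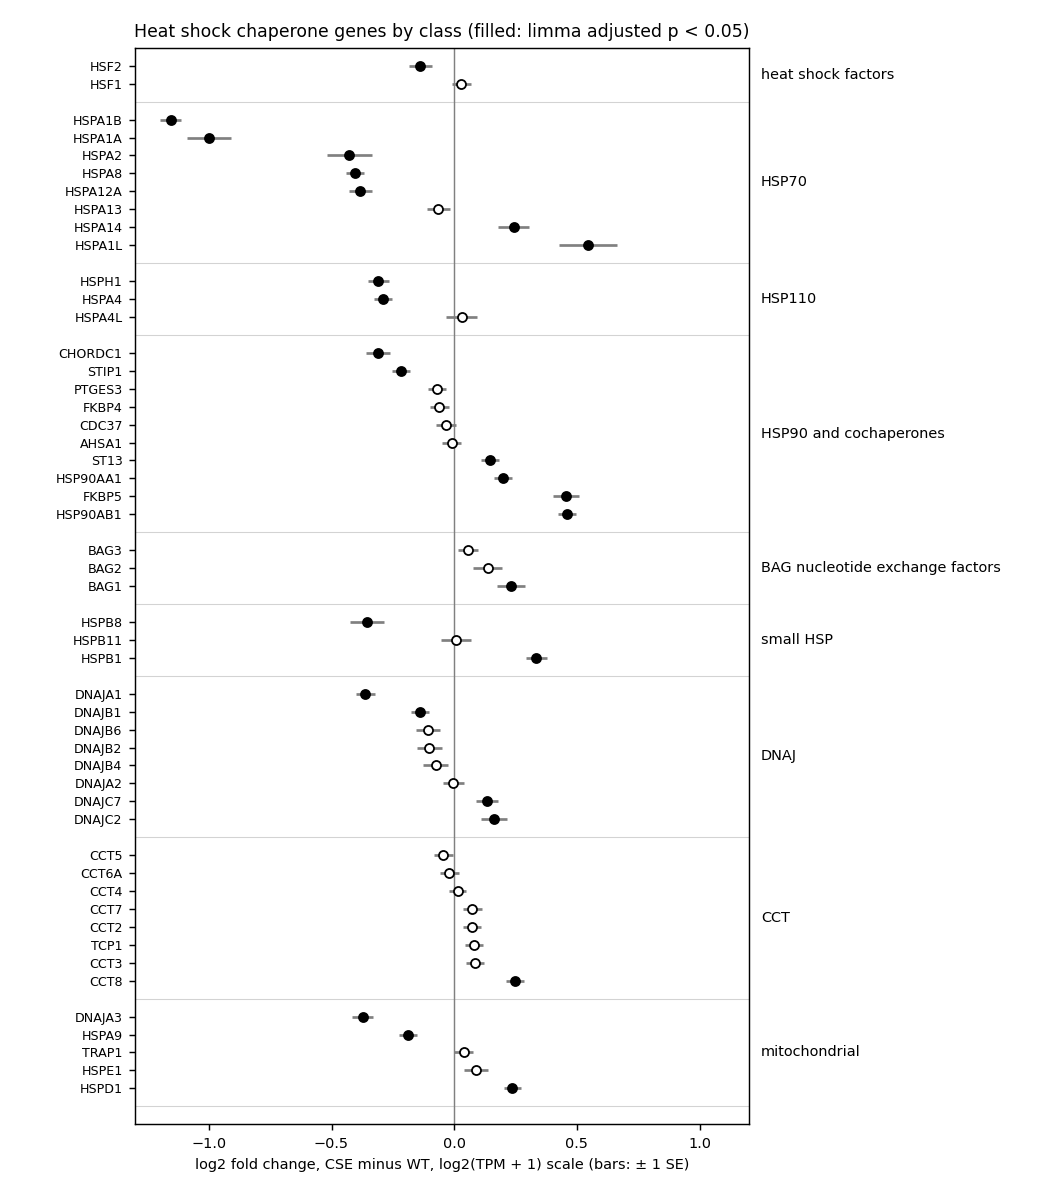
Log2 fold change (CSE minus WT, from log2(TPM + 1); x axis, bars ± 1 SE) of the 50 tested members, by class; filled points passed the limma test. HSP70 members reach -1.16 at the low end and HSPA1L, tested only through its CSE values, lies at 0.54, while the 8 CCT genes lie between -0.04 and 0.25.

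The classes differed in their summed level. HSP70 mRNAs summed to 804, 810 and 786 TPM in CSE, against 1109, 1109 and 1078 TPM in WT, 1.37-fold lower with no overlap. HSP110 mRNAs summed to 212 ± 1.23 TPM in CSE and 258 ± 4.89 TPM in WT (SD, n = 3 each), and DNAJ mRNAs to 583 ± 3.42 TPM in CSE and 648 ± 12.8 TPM in WT (SD, n = 3 each). In contrast, HSP90 with its cochaperones summed to 5795, 5903 and 6053 TPM in CSE, against 5034, 5051 and 4962 TPM in WT. That rise lay in HSP90AA1 and HSP90AB1, which alone summed to 4290 ± 109 TPM in CSE and 3334 ± 28.3 TPM in WT (SD, n = 3 each). Small HSPs summed to 448 ± 18.6 TPM in CSE and 364 ± 15.3 TPM in WT (SD, n = 3 each), most of it HSPB1 (mean 419 TPM in CSE, 332 TPM in WT). The CCT class had 3014 ± 52.1 TPM in CSE and 2865 ± 71.3 TPM in WT, and the mitochondrial class 1434 ± 25.8 TPM in CSE and 1395 ± 17.1 TPM in WT (SD, n = 3 each). All 52 members together held 1.27% of the TPM in CSE and 1.19% in WT. These sums are given without a test and weigh abundant genes most. They are shares of a total in which mitochondrially encoded transcripts held 25.5% to 25.8% in CSE and 27.0% to 30.2% in WT. Leaving those out would lower each sum in CSE relative to WT, and the sums were not recomputed in this way. The CCT class (1.052-fold), the mitochondrial class (1.028-fold) and all members (1.065-fold) differed by little, so this matters most for them.

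**Figure D2:**
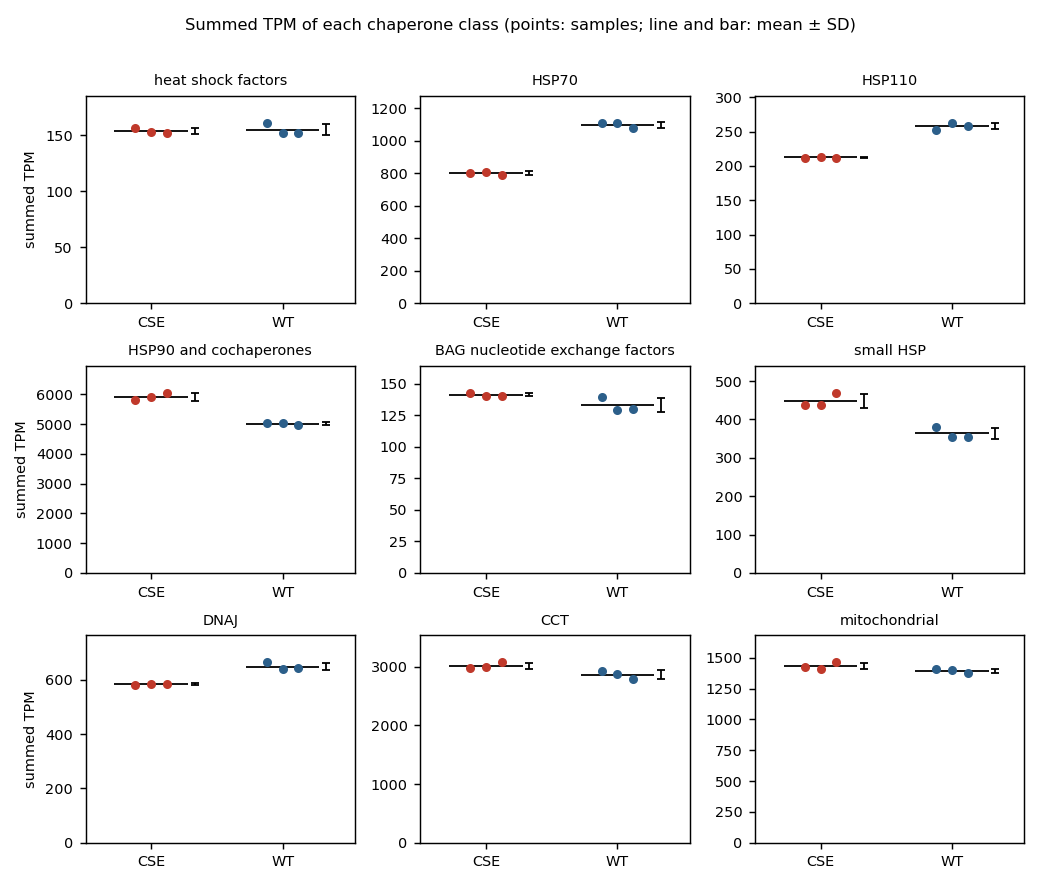
Summed TPM (y axis, from 0) of the members of each class in the 3 CSE samples and the 3 WT samples; the line and bar give mean ± SD. The HSP70 sum lies at 786 to 810 TPM in CSE and 1078 to 1109 TPM in WT, with the HSP90 class higher in every CSE sample than in any WT sample.

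Of the heat shock factors, HSF1 had 121, 116 and 116 TPM in CSE, against 119, 113 and 113 TPM in WT. The groups overlapped (log2 fold change 0.03 with SE 0.0401, adjusted p = 0.57 by limma). These values are of mRNA, whereas HSF1 is known to be regulated mainly by trimerization and phosphorylation of the protein. HSF2, a related factor that can form mixed trimers with HSF1, had 36.3 ± 0.528 TPM in CSE and 40.1 ± 1.88 TPM in WT (SD, n = 3 each) and fell (log2 fold change -0.14, limma adjusted p = 0.0195). The call of HSF2 was lost without CSE replicate 1 (limma adjusted p = 0.0668) and without WT replicate 1 (0.0955).

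Of the 8 HSP70 genes tested 5 fell, against 25.6% of all genes, and HSPA14 rose. HSPA13 was not called, and HSPA1L was set aside because it entered the test through its CSE values alone. HSPA1B encodes the main stress-inducible HSP70 together with HSPA1A, its neighbour in the major histocompatibility region (ENSG00000204388, chromosome 6, GENCODE 29). It had 59.98, 57.4 and 61.5 TPM in CSE, against 137, 135 and 130 TPM in WT. Every CSE sample lay below every WT sample, by a margin many times the spread within either group (log2 fold change -1.16 with SE 0.042, adjusted p = 2.63e-15 by limma). HSPA1A (ENSG00000204389) had 1.67, 2.02 and 1.91 TPM in CSE, against 4.68, 5.33 and 4.21 TPM in WT. It too was lower in each CSE sample, 2.54-fold in TPM (log2 fold change -0.999 with SE 0.0906, adjusted p = 9.44e-09 by limma).

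The values of HSPA1A and HSPA1B are uncertain as single genes. Their coding sequences of 1923 bases differ at 4 positions (99.8% identity), and 71.3% of the distinct stretches of 50 bases in HSPA1A transcripts also occur in another gene, mostly HSPA1B. How the counting treated reads that fit both is not given in the sources used here. HSPA1A was at 0.0314 ± 0.00368 of the HSPA1B value in CSE and 0.0353 ± 0.00368 in WT (SD, n = 3 each), and the ranges of the groups overlapped. The sum of both, which does not depend on the split, was 61.7, 59.4 and 63.4 TPM in CSE, against 142, 140 and 134 TPM in WT. It was 2.257-fold lower in CSE with no overlap (log2 fold change -1.16 with SE 0.0417, adjusted p = 2.14e-15 by limma, fitted with the 2 rows replaced by their sum). Over the 15 alternatives the sum ranged from -1.22 to -1.14 and passed in each.

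HSPA8, the constitutive HSC70 that is present in all cells and the most abundant HSP70 member here (ENSG00000109971, chromosome 11), had 662, 669 and 643 TPM in CSE, against 878, 876 and 857 TPM in WT. It was lower in each CSE sample (1.32-fold, log2 fold change -0.40 with SE 0.0357, adjusted p = 6.54e-09 by limma). HSPA12A, a distant HSP70 relative, had 29.2, 29.2 and 28.3 TPM in CSE, against 38.0, 38.7 and 37.3 TPM in WT (log2 fold change -0.38, limma adjusted p = 6.54e-07). HSPA2, best known for its role in spermatogenesis, had 1.83, 1.49 and 1.81 TPM in CSE, against 2.72, 2.69 and 2.51 TPM in WT (log2 fold change -0.43, limma adjusted p = 0.000559). For both genes the groups stood apart (57.4% of all genes).

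HSPA14 went the other way. HSPA14, which works at the ribosome with the J-domain protein DNAJC2, had 11.2, 12.1 and 12.6 TPM in CSE, against 9.65, 10.1 and 10.1 TPM in WT (1.2-fold higher, log2 fold change 0.24, limma adjusted p = 0.00281). DNAJC2 itself was higher as well, at 17.9, 18.0 and 17.8 TPM in CSE, against 15.8, 15.98 and 15.8 TPM in WT (log2 fold change 0.16, limma adjusted p = 0.0148). The groups did not overlap for either partner, although the DNAJC2 call was lost without CSE replicate 1 (limma adjusted p = 0.0511) and with mitochondrially encoded genes left out (0.0723). HSPA14 shares 19.7% of its stretches of 50 bases with another gene ID of the table. HSPA1L, a neighbour of HSPA1A, had 1.46, 1.41 and 1.08 TPM in CSE, against 0.71, 0.71 and 0.36 TPM in WT. As it was tested only because of its CSE values, these are given as a description.

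The remaining HSP70 genes showed little. HSPA13, a microsomal HSP70-like ATPase, had 36.6 ± 0.57 TPM in CSE and 38.4 ± 1.86 TPM in WT (SD, n = 3 each; limma adjusted p = 0.271), and was called lower when mitochondrially encoded genes were dropped (0.0247). HSPA6, a human gene that is induced from a very low level by heat, was at or below 0.05 TPM in all 6 samples.

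**Figure D3:**
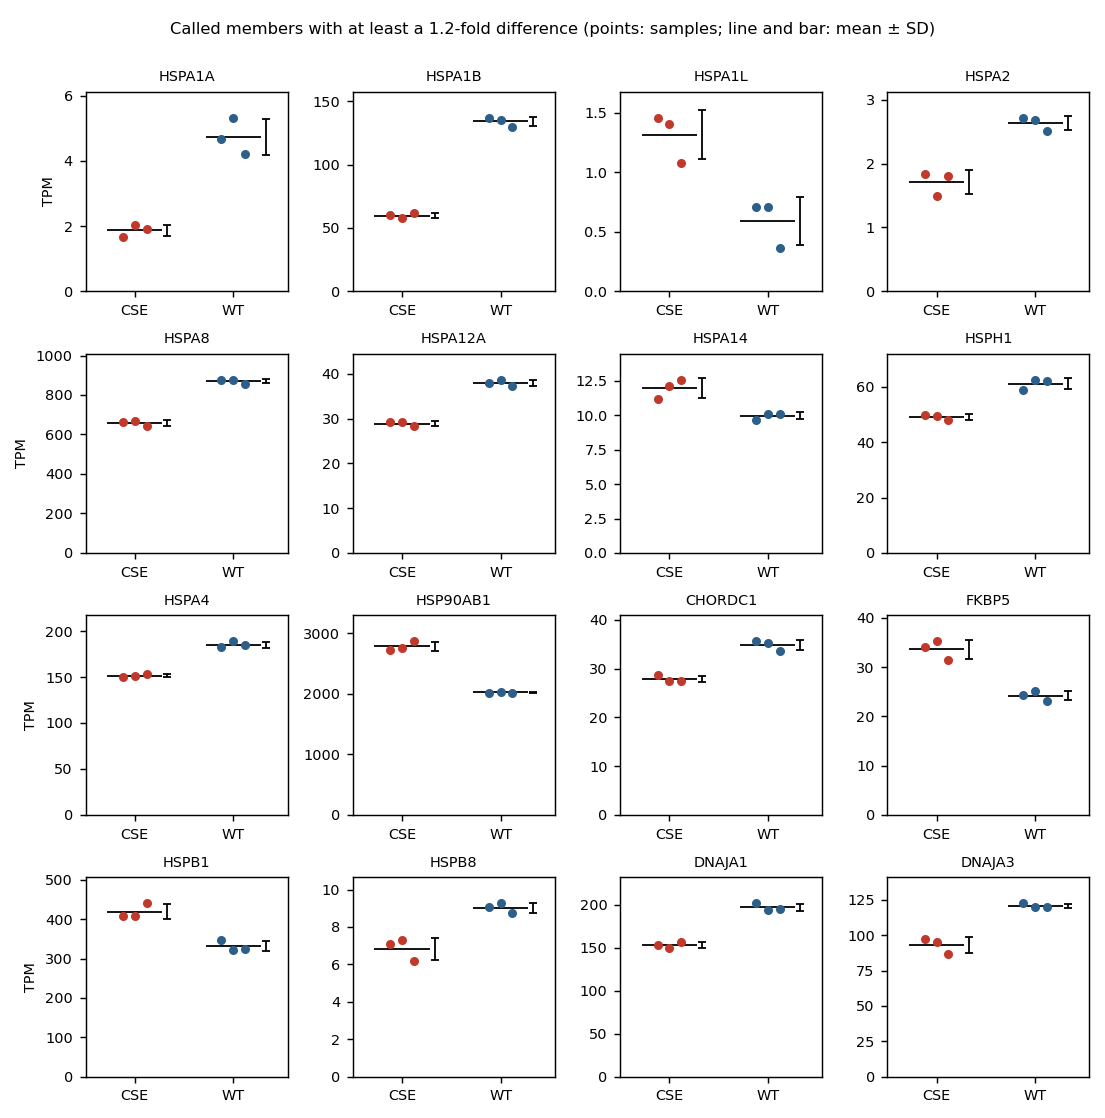
TPM (y axes, from 0) of the 16 called members that differed at least 1.2-fold, in the 3 CSE samples and the 3 WT samples; the line and bar give mean ± SD. The panels were chosen by call and size of difference, so the gap between the groups in all 16 (57.4% of all genes) adds no support. HSPA1L is among them and was tested only through its CSE values. HSPA1B lies between 57.4 and 61.5 TPM in CSE and between 130 and 137 TPM in WT.

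Of the HSP110 genes, whose products eject ADP from HSP70, 2 of 3 fell, against 25.6% of all genes. HSPH1 had 49.9, 49.5 and 48.1 TPM in CSE, against 58.9, 62.6 and 62.0 TPM in WT (log2 fold change -0.31 with SE 0.0438, adjusted p = 5.36e-06 by limma). HSPA4, the most abundant of the class, had 150, 151 and 153 TPM in CSE, against 182, 189 and 185 TPM in WT (log2 fold change -0.29 with SE 0.0373, adjusted p = 1.4e-06 by limma). All CSE values lay below all WT values for both (no overlap in 57.4% of all genes). HSPA4L had 12.03 ± 1.03 TPM in CSE and 11.7 ± 0.208 TPM in WT (SD, n = 3 each; limma adjusted p = 0.719).

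The BAG proteins also release nucleotide from HSP70 and link it to degradation or signalling. BAG1, which couples HSP70 to the proteasome, had 18.8 ± 0.255 TPM in CSE and 15.9 ± 1.13 TPM in WT (SD, n = 3 each) and rose (log2 fold change 0.23, limma adjusted p = 0.00221). BAG3, which acts in selective autophagy with HSPB8 and is a target of HSF1, had 111, 109 and 109 TPM in CSE, against 111, 102 and 104 TPM in WT. The BAG3 values overlapped (limma adjusted p = 0.274). BAG2 had 13.2 ± 0.0929 TPM in CSE and 11.9 ± 0.517 TPM in WT (SD, n = 3 each; limma adjusted p = 0.0582). It passed without CSE replicate 3 (0.0468), without WT replicate 1 (0.0407) and in 4 other alternatives, and 43.2% of its stretches of 50 bases occur in another gene of the table, mostly RAB23 on the opposite strand.

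The cytosolic HSP90 genes both rose, against 24.5% of all genes called higher. HSP90AB1, the constitutive isoform (ENSG00000096384, chromosome 6), had 2727, 2763 and 2865 TPM in CSE, against 2017, 2032 and 2022 TPM in WT. Each CSE sample was higher by far more than the spread within a group (1.38-fold, log2 fold change 0.46 with SE 0.0369, adjusted p = 1.49e-09 by limma). HSP90AA1, the more inducible isoform, had 1464, 1509 and 1542 TPM in CSE, against 1300, 1335 and 1298 TPM in WT (1.148-fold, log2 fold change 0.20 with SE 0.0366, adjusted p = 0.000121 by limma). Under quantile normalization the sizes were 0.29 for HSP90AB1 and 0.12 for HSP90AA1, and both still passed. Other genes hold 16.6% of the stretches of 50 bases of HSP90AB1, mostly HSP90AB3P, and 18.5% of those of HSP90AA1, mostly HSP90AA2P. Genes of the table hold 0% and 3.62%. The part of shared reads in these values was not tested.

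The cochaperones of HSP90 were mixed. Of the other 8 genes 2 were higher, against 24.5% of all genes, and 2 lower, against 25.6%, so these counts lie close to the background. FKBP5, an immunophilin that restrains steroid receptors, had 34.0, 35.2 and 31.5 TPM in CSE, against 24.4, 25.1 and 23.2 TPM in WT (1.39-fold higher, log2 fold change 0.45 with SE 0.0527, adjusted p = 3.49e-07 by limma). ST13, which binds HSP70 and helps to pass clients on, had 243 ± 6.68 TPM in CSE and 219 ± 4.20 TPM in WT (SD, n = 3 each; log2 fold change 0.15, limma adjusted p = 0.00289). The size for ST13 was 0.08 under quantile normalization and 0.09 when mitochondrially encoded genes were dropped, and it passed in both. CHORDC1 had 28.7, 27.6 and 27.4 TPM in CSE, against 35.6, 35.3 and 33.7 TPM in WT (log2 fold change -0.31 with SE 0.0481, adjusted p = 1.54e-05 by limma). STIP1, the adaptor that carries clients from HSP70 to HSP90, had 252 ± 3.66 TPM in CSE and 293 ± 4.91 TPM in WT (SD, n = 3 each) and fell (log2 fold change -0.22, limma adjusted p = 4.1e-05). The groups were apart for these 4 genes, against 57.4% of all genes. AHSA1, which stimulates the HSP90 ATPase, the kinase adaptor CDC37, the immunophilin FKBP4 and PTGES3 (p23) did not pass, with log2 fold changes of -0.07 to -0.01 and limma adjusted p of 0.12 to 0.84. CDC37, FKBP4 and PTGES3 were called lower under quantile normalization and when mitochondrially encoded genes were dropped.

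In the small HSP class HSPB1 and HSPB8 moved apart. HSPB1 (HSP27), the most abundant of them, had 408, 408 and 440 TPM in CSE, against 347, 322 and 325 TPM in WT (1.26-fold higher, log2 fold change 0.34 with SE 0.0409, adjusted p = 7.07e-07 by limma). HSPB8, the partner of BAG3, had 7.07, 7.29 and 6.17 TPM in CSE, against 9.07, 9.26 and 8.73 TPM in WT (1.32-fold lower, log2 fold change -0.36 with SE 0.0699, adjusted p = 0.00024 by limma). Neither gene showed overlap between the groups (57.4% of all genes show none). HSPB11, now named IFT25 for its place in the intraflagellar transport complex, had 22.5 ± 0.969 TPM in CSE and 22.4 ± 2.06 TPM in WT (SD, n = 3 each; limma adjusted p = 0.926). CRYAB stayed below 1 TPM in all samples (0.37 to 0.66 TPM in CSE, 0.65 to 0.74 TPM in WT) and was not tested.

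Of 8 DNAJ genes 2 fell and 2 rose (4 of 8 called, against 50.1% of all genes). DNAJA1, an abundant class A partner of HSPA8, had 153, 149 and 157 TPM in CSE, against 202, 194 and 196 TPM in WT (1.29-fold lower, log2 fold change -0.36 with SE 0.0382, adjusted p = 9.21e-08 by limma). DNAJB1 (HSP40), the classical stress-inducible partner of HSP70 and the most abundant of the class, had 220, 223 and 219 TPM in CSE, against 249, 239 and 242 TPM in WT (1.102-fold lower, log2 fold change -0.14 with SE 0.0366, adjusted p = 0.00331 by limma). Both were lower in each CSE sample than in any WT sample (no overlap in 57.4% of all genes). DNAJC7, which also binds HSP90, had 57.2 ± 2.47 TPM in CSE and 51.98 ± 0.298 TPM in WT (SD, n = 3 each; log2 fold change 0.13, limma adjusted p = 0.0159). The DNAJC7 call was lost without CSE replicate 2 (0.0922), without WT replicate 2 (0.0553) and with mitochondrially encoded genes left out (0.116). Other genes of the table hold 19.94% of the stretches of 50 bases of DNAJC7. DNAJA2, DNAJB2, DNAJB4 and DNAJB6 did not pass, with log2 fold changes from -0.11 to -0.00. DNAJB2 and DNAJB6 were called lower without WT replicate 3 (0.0434 and 0.0436), and DNAJB2, DNAJB4 and DNAJB6 when mitochondrially encoded genes were dropped. DNAJB6 was also called lower under median-of-ratios scaling (0.0315) and quantile normalization (0.0294).

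The CCT ring is built of 8 different subunits in equal number, and its genes stayed near their WT level with 1 exception. CCT8 had 400, 404 and 423 TPM in CSE, against 345, 351 and 337 TPM in WT, a 1.19-fold rise with no overlap (log2 fold change 0.25 with SE 0.0371, adjusted p = 1.13e-05 by limma). CCT7, the most abundant, had 544, 551 and 582 TPM in CSE, against 541, 540 and 514 TPM in WT. The CCT7 groups stood just apart without passing the test (log2 fold change 0.07, limma adjusted p = 0.118). TCP1, CCT2 and CCT3 likewise had every CSE value above every WT value without passing, so that 5 of the 8 subunits showed no overlap, against 57.4% of all genes. TCP1, CCT2, CCT3, CCT4, CCT5 and CCT6A had log2 fold changes from -0.04 to 0.09 and limma adjusted p from 0.0607 to 0.767. Only CCT3 passed when a library was left out, as higher without WT replicate 1 (0.0149); it also passed under median-of-ratios scaling (0.0356). CCT5 and CCT6A were called lower under quantile normalization and when mitochondrially encoded genes were dropped. Subunit levels, which are per length, spanned 220 TPM (CCT5) to 559 TPM (CCT7) in CSE and 227 TPM (CCT5) to 532 TPM (CCT7) in WT.

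Of the 5 mitochondrial chaperones 1 rose, HSPD1, against 24.5% of all genes, and 2 fell, HSPA9 and DNAJA3, against 25.6%. HSPD1 (HSP60), the most abundant of the class, had 712, 704 and 740 TPM in CSE, against 612, 614 and 602 TPM in WT (1.18-fold higher, log2 fold change 0.24 with SE 0.0361, adjusted p = 1.28e-05 by limma). Its size was 0.11 under quantile normalization, where it still passed. HSPE1 (HSP10), its lid, is transcribed head to head with HSPD1 and had 112, 109 and 128 TPM in CSE, against 107, 110 and 109 TPM in WT. HSPE1 overlapped between the groups (limma adjusted p = 0.131), with CSE replicate 3 the highest sample, and passed without CSE replicate 2 (0.0301). Reads of HSPE1 may also be given to the readthrough gene HSPE1-MOB4, which holds 13.4% of its stretches of 50 bases.

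HSPA9 (mortalin), the mitochondrial HSP70 and motor of protein import, had 379 ± 2.51 TPM in CSE and 432 ± 8.93 TPM in WT (SD, n = 3 each) and fell (1.14-fold, log2 fold change -0.19 with SE 0.0357, adjusted p = 0.000158 by limma). Its J-domain partner DNAJA3 had 97.3, 95.03 and 86.9 TPM in CSE, against 122, 120 and 120 TPM in WT (1.30-fold lower, log2 fold change -0.37 with SE 0.0439, adjusted p = 4.2e-07 by limma). Both were below WT in every CSE sample (no overlap in 57.4% of all genes). TRAP1, the mitochondrial HSP90, had 127 ± 1.22 TPM in CSE and 124 ± 2.97 TPM in WT (SD, n = 3 each; limma adjusted p = 0.427).

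Ratios of TPM within a sample do not depend on the library total and show the same pattern; the pairs were chosen after their values were seen and are given as a description. HSP90AB1 stood at 4.12, 4.13 and 4.46 times HSPA8 in CSE, against 2.30, 2.32 and 2.36 times in WT. HSP90AB1 over HSP90AA1 was 1.85 ± 0.0171 in CSE and 1.54 ± 0.0192 in WT (SD, n = 3 each). DNAJA1 over HSPA8 was 0.233 ± 0.0107 in CSE and 0.226 ± 0.00429 in WT (SD, n = 3 each), so these partners differed from WT to a like extent. DNAJB1 over DNAJA1 was 1.44 ± 0.0482 in CSE and 1.24 ± 0.00344 in WT, and HSPD1 over HSPA9 was 1.90 ± 0.0395 in CSE and 1.41 ± 0.0142 in WT (SD, n = 3 each).

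**Figure D4:**
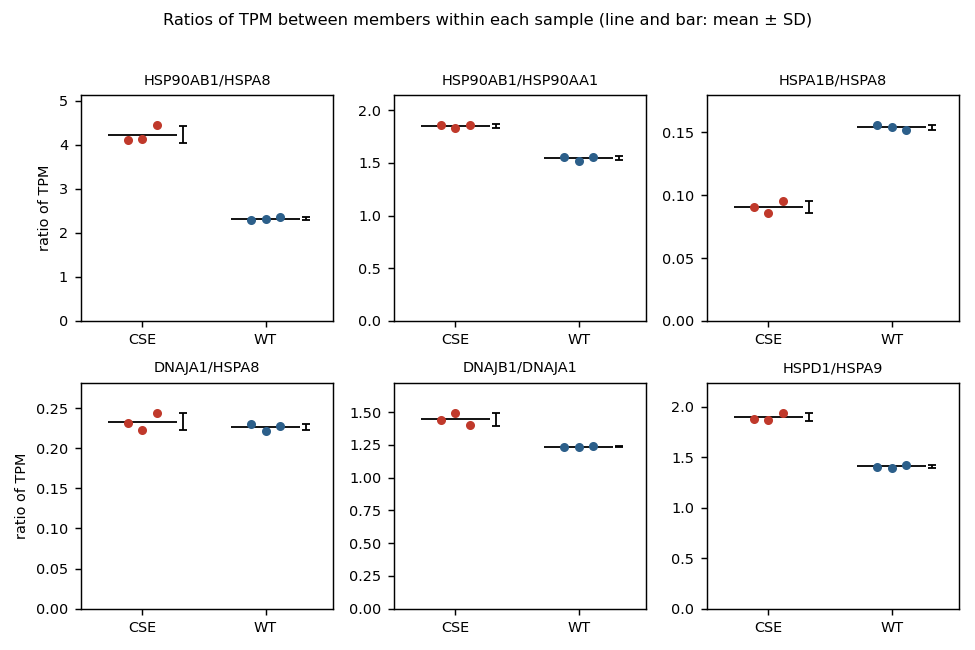
Ratio of TPM (y axes, from 0) of 6 pairs of members within each of the 3 CSE samples and the 3 WT samples; the line and bar give mean ± SD. HSP90AB1/HSPA8 lies at 4.12 to 4.46 in CSE and 2.30 to 2.36 in WT, while DNAJA1/HSPA8 overlaps between the groups.

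The 3 most abundant members in WT were HSP90AB1, HSP90AA1 and HSPA8, and they were higher, higher and lower in CSE. Members under 10 TPM in WT included the rise of HSPA14 and the falls of HSPA1A, HSPA2 and HSPB8.

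**Figure D5:**
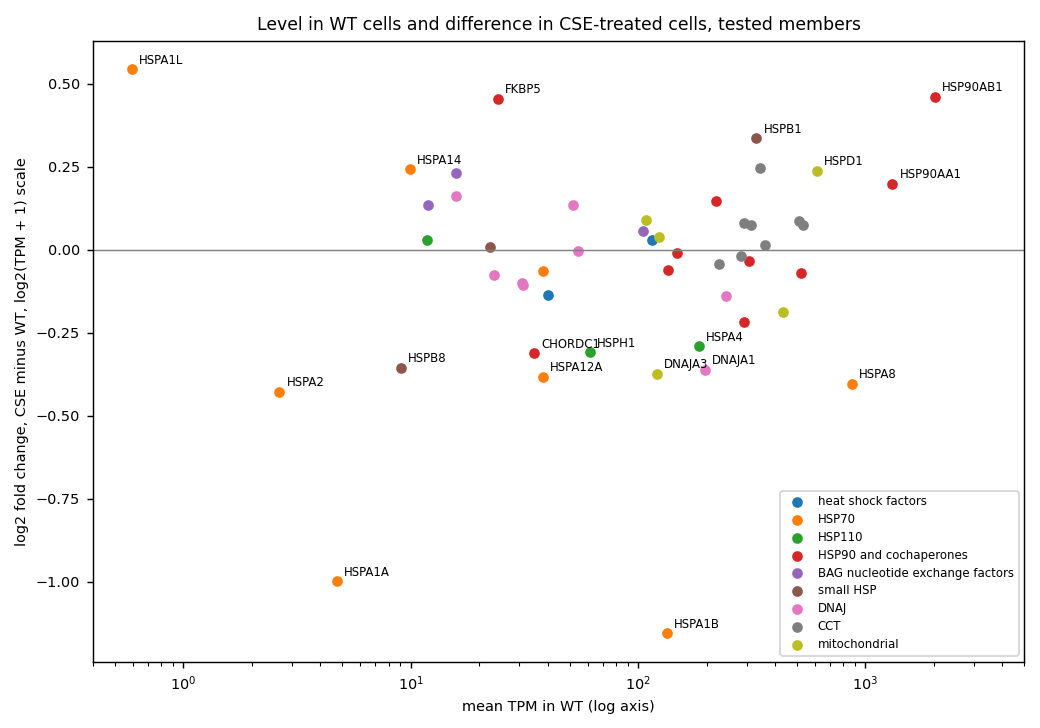
Mean TPM in WT (x axis, log scale) and log2 fold change (CSE minus WT, from log2(TPM + 1); y axis) of the 50 tested members, coloured by class. HSPA1B (134 TPM in WT, -1.16) and HSPA1A (4.74 TPM in WT, -0.999) lie far below the rest, and HSP90AB1 (2023 TPM in WT) at 0.46.

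A further 66 genes of the same network gave a similarly even picture. Of these cofactors, proteases and other targets 16 were called higher in CSE and 15 lower (47.0% called, against 50.1% of all genes), with a median log2 fold change of -0.015. For each list below, the shares over all genes were 24.5% higher and 25.6% lower. With mitochondrially encoded genes left out 9 were higher and 25 lower, and the count of higher genes was 10 without CSE replicate 1 and 9 without WT replicate 3. Of 9 prefoldin subunits and CCT cofactors, which deliver or regulate CCT clients, 4 rose, among them PFDN4 (0.29) and VBP1 (0.24), and 2 fell, PFDN2 (-0.26) and PFDN6 (-0.15), all as log2 fold changes. Of 14 other HSP90 cochaperones and related adaptors 3 rose, with FKBPL at 0.21 and NUDCD2 at 0.17, and 2 fell, with TTC4 at -0.39. Of 17 other HSP70 cofactors 4 rose, with CACYBP at 0.29 and DNAJC13 at 0.17, and 4 fell, with DNAJB5 at -0.40 and BAG5 at -0.27.

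In the mitochondrion, 4 of 16 import cofactors and quality-control proteases rose, against 24.5% of all genes, led by DNAJC19 (log2 fold change 0.19) and the protease subunit CLPP (0.18). Another 4 fell, against 25.6% of all genes, with the disaggregase CLPB (-0.35) and the import motor subunit PAM16 (-0.31) at the largest size. Among 10 other genes induced through HSF1 in heat-shocked cells, 1 rose and 3 fell (40.0% called, against 50.1% of all genes). The gene that rose was SERPINH1 (HSP47), the collagen chaperone of the endoplasmic reticulum, at 52.5 TPM in CSE and 36.3 TPM in WT (log2 fold change 0.52, limma adjusted p = 9.1e-09). IER5, which binds HSF1, was at 64.4 TPM in CSE and 81.2 TPM in WT (log2 fold change -0.33, limma adjusted p = 4.03e-06).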

How the data were processed

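The authors deposited 1 table of TPM for 20263 genes in 6 libraries, with 0 sample columns left unmapped; per the labels' protocols it comes from DNase-treated total RNA and an mRNA kit. HISAT2 2.0, Trimmomatic 0.36, FastQC 0.11.2, bedtools 2.26.0 and the build GRCh38 are listed, without their roles, per the submitters' processing notes. The counter, its annotation, strandedness and treatment of multiply mapped reads are not stated, so overlapping genes and near-identical copies may exchange reads.

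Genes with at least 1 TPM in at least 3 libraries (12793) were compared on the log2(TPM + 1) scale with limma 3.58.1 in R 4.3.3 (mean-variance trend, no covariate, Benjamini-Hochberg over all genes, two-sided, 0.05). Fold changes are CSE minus WT and understate the change of genes with low TPM. For the HSPA1 sum, both rows were replaced by their total. Members with a call and at least 1.2-fold, and the most abundant of each class, are given per sample; from other lists, up to 2 called genes per direction. Members and lists were chosen with earlier results of these data known. The procedure was tested on simulated data. IDs were matched to symbols for 20148 genes. Sequences are from RefSeq (GRCh38.p14), and shared stretches of 50 bases were sought in GENCODE 29 transcripts. For 9 members at least 10% of these stretches occur in another gene of the table, and 12 members share none with any other gene. Alternatives were another pseudocount (0.1), no filter, a mean of at least 5 TPM, 3 other scalings, 2 other variance priors, a replicate block and leaving out each sample.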

Additional observations from a re-analysis of the deposited data

How the results depend on the processing

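The summed HSPA1A and HSPA1B passed as lower in all 15 alternatives (log2 fold change -1.22 to -1.14). With mitochondrially encoded genes left out, 24 members were called lower, 9 companion genes higher and 25 lower, against 15, 16 and 15 as reported; these transcripts hold a smaller share in CSE, so rescaling lowers the other genes in CSE relative to WT. Leaving out each sample in turn gave 10 to 14 members higher and 14 to 17 lower, 9 to 17 companion genes higher and 13 to 18 lower, and 5408 to 6558 of all genes called, against 6407. Without the filter 12 members were higher and 15 lower, with 33.3% of all genes called. Under quantile normalization 13 members were higher and 21 lower, with 54.1% of all genes called and 50.1% of those calls higher. With the replicate number as a block, 13 members were higher and 15 lower and 6537 genes were called, the added member being BAG2 (limma adjusted p = 0.0454). Deviations of same-numbered samples correlated at -0.0711, 0.015 and -0.0883. With 3 samples per group these values cannot decide whether the numbers pair the samples, and the labels do not say. Depth is unknown, so the counting error of genes of low TPM (HSPA1A, HSPA1L, HSPA2) cannot be given.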
